A study of Mus musculus with 42 samples.

Results

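The vomeronasal type 1 receptor (V1R) genes were examined for their position relative to lamina-associated domains (LADs) in mouse liver. The members are the autosomal protein-coding genes of GENCODE vM21 whose symbol begins with Vmn1r. They number 208 of 20807 autosomal protein-coding genes and carry 207 symbols, since Vmn1r216 is listed under 2 gene identifiers. LADs are stretches of chromatin that contact the nuclear lamina, and here they were mapped by chromatin immunoprecipitation and sequencing (ChIP-seq) of lamin B1 (LMNB1), a lamina protein, in liver from 14 wild-type C57Bl/6 mice. The 2 non-synchronized (NS) mice had not been fasted and their livers were taken at midday. The others were fasted over 24 h, given chow again from circadian time CT0, and killed at CT0, 6, 12, 18, 24 or 30, with 2 mice per time point. The source label calls the mice female and the growth protocol calls them male. A gene was called in a LAD when its start site lay inside a LAD of that mouse, and the share of genes in LADs is a percentage of start sites. The LADs are intervals without a signal, so the number of reads behind a state is unknown.

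V1Rs are G protein-coupled receptors of sensory neurons in the vomeronasal organ, where they detect pheromones and other chemical cues and signal through the G protein subunit Gnai2 and the channel Trpc2. The family has expanded by duplication into clusters of related genes, and each neuron is thought to express a single receptor. No role in liver is known. The coding parts of the 208 members were 867 to 1152 bp long (median 921 bp), and 206 had a single coding exon.

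The members formed 13 runs with neighbouring start sites at most 1 Mb apart, called clusters here. Chromosome 7 held 103 members, chromosome 6 held 51, chromosome 13 held 36 and chromosome 17 held 14, and chromosomes 1, 4 and 18 held 1, 2 and 1. Of the 13 clusters, 8 had 5 or more members and together held 201 genes. The genes V1ra8 and V1rd19, which carry older symbols of the family, lie within the clusters and are not members under the naming rule. V1ra8 was in a LAD in 0 and V1rd19 in 5 of 14 libraries.

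Stretches of 250 bases upstream of 5 start sites are shown because they stand for the range of LAD states of the family and for its sequence duplication. They were read from GRCm38 (mm10) and run 5′ to 3′ towards the gene, with CpG dinucleotides in capitals. The window of Vmn1r66 (chr7:10278007-10278256, minus strand) belongs to a gene in LADs in 14 of 14 libraries, that of Vmn1r135 (chr7:21832101-21832350, plus strand) to a gene in LADs in 10, and that of Vmn1r224 (chr17:20413896-20414145, plus strand) to a gene in LADs in 13. Vmn1r188 (chr13:22084190-22084439, plus strand) was in a LAD in 1 library and Vmn1r40 (chr6:89707290-89707539, plus strand) in 0.
Vmn1r66: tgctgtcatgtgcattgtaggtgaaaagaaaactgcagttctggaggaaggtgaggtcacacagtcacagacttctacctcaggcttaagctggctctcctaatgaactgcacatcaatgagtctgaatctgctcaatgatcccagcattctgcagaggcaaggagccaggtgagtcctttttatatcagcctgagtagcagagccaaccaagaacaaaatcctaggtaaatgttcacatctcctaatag
Vmn1r135: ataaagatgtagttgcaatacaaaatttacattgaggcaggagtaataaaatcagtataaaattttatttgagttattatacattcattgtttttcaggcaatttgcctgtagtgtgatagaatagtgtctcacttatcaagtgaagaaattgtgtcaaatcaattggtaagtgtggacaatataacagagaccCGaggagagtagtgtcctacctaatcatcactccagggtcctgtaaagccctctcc
Vmn1r224: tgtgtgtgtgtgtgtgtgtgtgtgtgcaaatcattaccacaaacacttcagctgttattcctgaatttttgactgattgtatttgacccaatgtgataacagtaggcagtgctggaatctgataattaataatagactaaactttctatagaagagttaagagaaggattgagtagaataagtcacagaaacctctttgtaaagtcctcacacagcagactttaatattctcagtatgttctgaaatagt
Vmn1r188: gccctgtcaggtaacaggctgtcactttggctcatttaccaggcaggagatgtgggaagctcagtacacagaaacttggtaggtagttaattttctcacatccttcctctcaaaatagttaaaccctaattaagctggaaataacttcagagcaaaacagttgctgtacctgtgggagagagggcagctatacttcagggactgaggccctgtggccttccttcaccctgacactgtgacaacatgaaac
Vmn1r40: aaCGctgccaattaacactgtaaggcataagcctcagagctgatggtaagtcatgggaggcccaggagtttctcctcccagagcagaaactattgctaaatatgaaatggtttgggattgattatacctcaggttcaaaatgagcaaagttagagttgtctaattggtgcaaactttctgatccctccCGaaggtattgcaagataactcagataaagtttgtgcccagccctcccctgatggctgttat

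These windows were poor in CpG, with 0, 1, 0, 0 and 2 CpG dinucleotides in the order shown. Over the 208 members the median was 1 CpG per window and 36.5% of windows had none, against a median of 8 and 7.38% over 20802 windows of all autosomal protein-coding genes. The median GC content was 37.6% in members and 54.4% over all genes. Windows of the other chemosensory families were similar, with medians of 38.4% for Vmn2r, 37.2% for Olfr and 35.2% for Tas2r genes. The letters TATAAA (or TTTATA on the other strand) were found in 30.3% of member windows and in 11.6% of all windows, and the palindrome TAATTA, a core read by homeodomain factors, in 21.6% and 4.90%. GGGCGG or CCGCCC was found in 1.92% of member windows and in 39.6% of all windows, and the palindromic consensus of EBF factors in 0% and 0.913%. For 53 members, of which 49 are in the Vmn1r91 to Vmn1r183 cluster and 1 is Vmn1r135, the gene model starts at the coding start, so that their windows lie upstream of the coding part and not of a mapped transcription start. Among the 155 other members TATAAA was found in 18.7% and TAATTA in 29.0% of windows. With identical windows counted once, these shares were 26.6% and 23.9% of 188 member windows, against 11.5% and 4.91% of all. These matches describe letters in the windows and not bound sites.

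The libraries differed in what they could resolve. They held 86 to 341 LADs that covered 13.5% to 26.5% of the autosomes. LAD starts fell on a grid of 4 to 61 kb, coarsest in NS replicate 1 (61 kb), CT0 replicate 1 (47 kb) and CT30 replicate 2 (46 kb). CT0 replicate 1 stood apart from all others for the members, as described below, and its effect is given beside the main results it touches. No expression was measured in these files, so the tissue label could not be checked against liver markers.

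Taken as a family, members were in LADs more often than other genes in every library. Among NS mice, 112 (53.8%) and 91 (43.8%) of 208 members were in LADs, where 4.18% and 8.28% of all autosomal protein-coding genes were. At CT0 the counts were 23 (11.1%) and 102 (49.0%), against 5.54% and 8.62% of all genes. At CT6 they were 88 (42.3%) and 128 (61.5%), against 7.3% and 10.2%. The 2 mice of CT0 thus differed more than those of any other time point. At CT12, 105 (50.5%) and 103 (49.5%) members were in LADs, against 8.51% and 9.85% of all genes. At CT18 the counts were 98 (47.1%) and 115 (55.3%), against 9.79% and 10.8%. At CT24 they were 87 (41.8%) and 79 (38.0%), against 9.48% and 8.2%. The CT12 and CT24 pairs were the closest. At CT30, 89 (42.8%) and 75 (36.1%) members were in LADs, against 6.31% and 5.79% of all genes. The ratio of the member share to the share of all genes was lowest in CT0 replicate 1 (2.00) and highest in NS replicate 1 (12.9), with a median of 5.49.

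**Figure D1:**
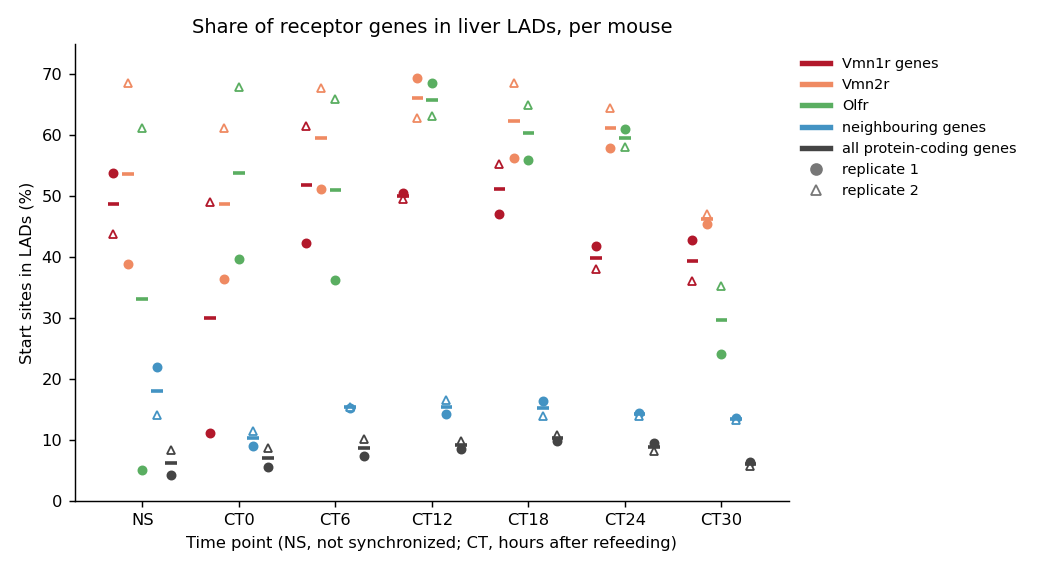
Share of start sites in LADs (y axis, percent) for Vmn1r, Vmn2r and Olfr genes, for protein-coding genes within Vmn1r clusters or 1 Mb beside them, and for all autosomal protein-coding genes, at each time point (x axis). Circles and triangles are the 2 mice and dashes their mean. Vmn1r genes lie above the neighbouring and all genes in each library, and CT0 replicate 1 (11.1%) lies far below the other 13.

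Over the 14 libraries the member share averaged 44.5% ± 11.9 (SD, n = 14), against 7.69% ± 1.94 for all other protein-coding genes. It was higher in 14 of 14 libraries, by 36.8 percentage points on average (exact paired permutation test, two-sided, p = 0.000122, the smallest this design can give, adjusted p = 0.000305 over 5 comparisons). With each cluster given equal weight the excess was 15.0 points and also passed (exact test, adjusted p = 0.000305). By chromosome, the mean share of members was 74.9% on chromosome 7 and 55.1% on chromosome 17. It was 8.26% on chromosome 6, 9.52% on chromosome 13 and 0% on chromosomes 1, 4 and 18. The excess was thus concentrated on chromosomes 7 and 17. The 518 neighbouring genes, which lie within a cluster or 1 Mb beside it, were also less often in LADs, at 14.5% ± 2.89, and the members were higher in 14 of 14 libraries (29.9 points, exact test, adjusted p = 0.000305). Equal weight of clusters brought this difference to 8.17 points (exact test, adjusted p = 0.000305). The neighbouring genes include V1ra8 and V1rd19.

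Compared with the other chemosensory families, the members were not the most often in LADs. The 121 Vmn2r genes, the other vomeronasal receptor family, averaged 56.8% ± 11.3, and the members were higher in 1 of 14 libraries (-12.4 points, exact test, adjusted p = 0.00305). With only the replicate 1 libraries this difference was -9.42 points and no longer passed (adjusted p = 0.182, n = 7, exact). The 1128 olfactory receptor (Olfr) genes averaged 50.5% ± 19.4 and the 35 bitter taste receptor (Tas2r) genes 56.9% ± 24.4. The differences of -6.05 and -12.5 points did not pass (exact test, adjusted p = 0.281 and 0.0752). Without NS replicate 1, in which 5.05% of Olfr and 0% of Tas2r genes were in LADs, they were -10.3 and -17.6 points and passed (exact test, adjusted p = 0.0181 and 0.00153). With each cluster given equal weight both changed sign, to 3.53 and 8.50 points (exact test, adjusted p = 0.213 and 0.00122), so no order of the members against these families is given.

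The share was not shown to differ between circadian times by more than between the 2 mice of a time point. The means for CT0, CT6 and CT12 were 30.0% ± 26.9, 51.9% ± 13.6 and 50.0% ± 0.680, and those for CT18, CT24 and CT30 were 51.2% ± 5.78, 39.9% ± 2.72 and 39.4% ± 4.76 (SD, n = 2 each). The ratio of the variance between to that within time points was F = 0.947 (exact permutation test over 10395 divisions of 12 libraries into 6 pairs, p = 0.553). Without CT0 replicate 1 F was 1.29 (p = 0.405, exact), and without CT0 replicate 2, which leaves CT0 with its low library alone, it was 5.85 (p = 0.0283, exact). NS mice averaged 48.8% ± 7.14. CT0 against NS differed by -18.8 points (exact permutation test of 2 mice against 2, p = 0.667, where the smallest possible is 0.333), and without CT0 replicate 1 by 0.240 points.

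The state of single members was uneven. Of the 208 members, 11 (5.29%) were in LADs in all 14 libraries, against 0.875% of all autosomal protein-coding genes, and 39 (18.8%) in none, against 82.9%. A further 52 (25.0%) were in LADs in 13 libraries, against 1.98%. Another 65 (31.3%) were in LADs in 1 to 3 libraries, against 6.64% of all genes, and 29 (13.9%) in 4 to 11, against 6.48%. At least 1 library placed 169 members (81.3%) in a LAD, against 17.1% of all genes, so the shares above depend on how many genes were ever in a LAD. Of these 169 members, 65 were in LADs in 1 to 3 libraries, 29 in 4 to 11 and 52 in 13. The numbers were 1381, 1348 and 413 among the 3557 of all genes in a LAD in at least 1 library. Without CT0 replicate 1 the members in LADs in all remaining libraries numbered 55 (26.4%), against 1.39% of all genes. Members of a cluster share LADs, so these counts are not of independent genes.

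**Figure D2:**
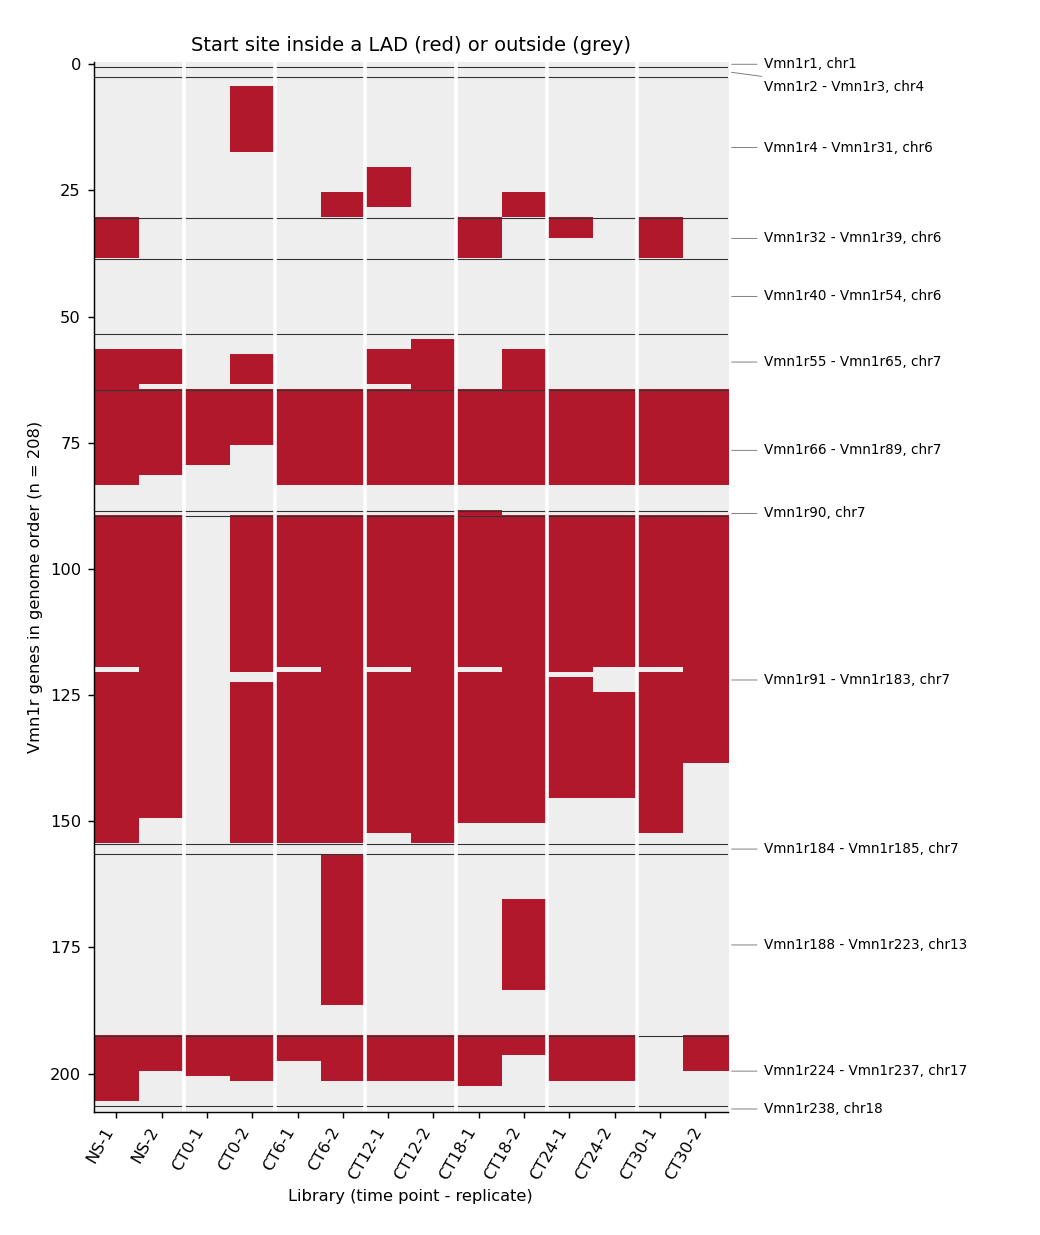
LAD state of each of the 208 members (rows, in genome order, grouped by cluster) in each of 14 libraries (columns, time point and replicate). Red is a start site inside a LAD and grey one outside. States run in blocks along the clusters, with Vmn1r40 to Vmn1r54 grey in all columns and Vmn1r66 to Vmn1r76 red in all.

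Clusters differed from each other in most pairs. Among the 7 clusters of 10 or more members, 15 of 21 pairs differed in their share over the 14 libraries (exact paired permutation tests, two-sided, adjusted p below 0.05). Cluster shares averaged from 0% for Vmn1r40 to Vmn1r54 to 85.8% for Vmn1r91 to Vmn1r183. Only the replicate 2 libraries gave 8 pairs and only the replicate 1 libraries gave 0 (n = 7 each, where the smallest unadjusted p is 0.0156).

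**Figure D3:**
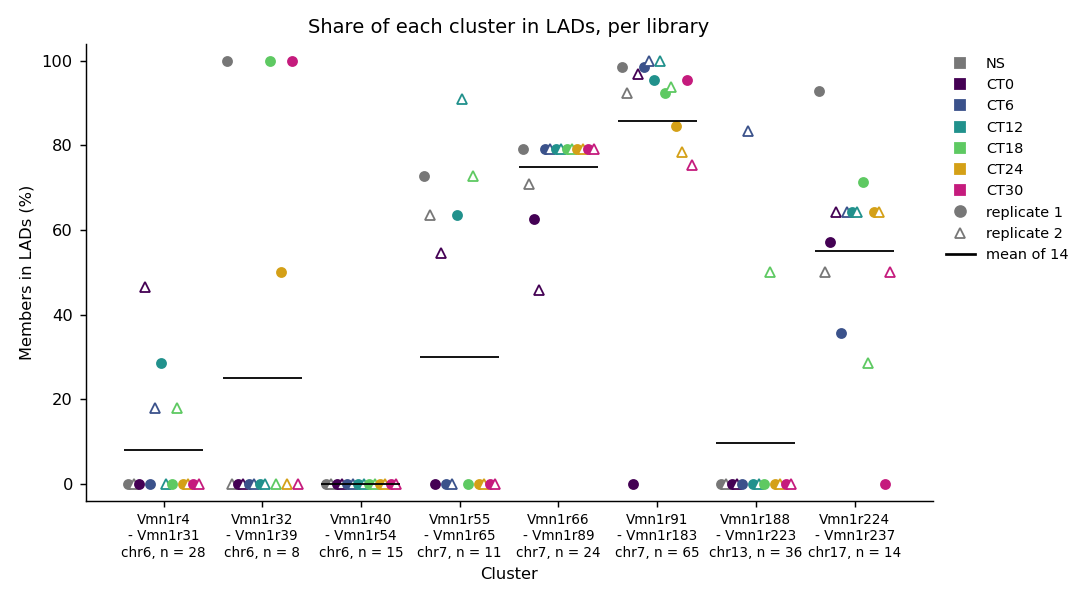
Share of the members of each cluster of 5 or more in LADs (y axis, percent), 1 symbol per library, coloured by time point, with circles for replicate 1 and triangles for replicate 2. Black lines are the means of 14 libraries, which run from 0% for Vmn1r40 to Vmn1r54 to 85.8% for Vmn1r91 to Vmn1r183.

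The largest cluster, Vmn1r91 to Vmn1r183 on chromosome 7 (start sites 20099680 to 24053254, 65 members), was in LADs for the most part in all libraries but CT0 replicate 1, with 49 (75.4%) to 65 members. Of its 65 members, 64 and 60 were in LADs in the NS mice, 0 and 63 in the CT0 mice, 64 and 65 in the CT6 mice and 62 and 65 in the CT12 mice. The CT18 mice had 60 and 61, the CT24 mice 55 and 51 and the CT30 mice 62 and 49. The mean was 85.8%, and 92.4% without CT0 replicate 1. In that library the members lay a median of 9.73 Mb from the nearest LAD. The same mouse had 6 LADs on chromosome 7, which covered 20.2 Mb, both the lowest of the 14 libraries (up to 27 LADs and 44.2 Mb), and the part of this in the count of 0 was not tested. The other 38 protein-coding genes within the cluster had a mean share of 88.7%, near that of the members. They include V1rd19 and mostly carry Gm symbols, and whether the Gm genes are receptors of the family was not examined. The share exceeded that of every other cluster tested except Vmn1r66 to Vmn1r89 (the latter minus the former -10.8 points, exact test, adjusted p = 0.141). Without CT0 replicate 1 that difference was -16.5 points and passed (adjusted p = 0.00186, exact test).

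Of this cluster's LADs, the first was recurrent in place. In the 13 libraries a first LAD began between 19985001 and 20069001, a range of 84.0 kb, and the 2 mice of a time point differed by 2.00 to 34.0 kb. Vmn1r91, the first member, was thus in a LAD in 13 of 14 libraries, as were 43 others. The far end of the second LAD was less fixed, from 23368000 in CT30 replicate 2 to 24095000 in NS replicate 1, a range of 727 kb. At CT18 the 2 mice ended at 23921000 and 23922000 and at CT24 at 23716000 and 23724000, whereas at CT30 they were 595 kb apart. Vmn1r181 and Vmn1r183, the last members, were in LADs in 5 libraries each, Vmn1r179 and Vmn1r180 in 7 each and Vmn1r178 in 9.

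Between both LADs lay a break that spanned a gap of 50 kb in the assembly (21620001 to 21670000), where no read can map. The break was wider than the gap in each library with LADs there except CT12 replicate 2, where it spanned the gap alone. The second LAD began at 22024001 in CT0 replicate 2 and at 21994001 and 22086001 in the CT24 mice. In the other libraries with LADs there it began between 21670001 and 21716001. The first LAD ended at the gap's edge (21620000) in NS replicate 2, CT12 replicate 2 and CT30 replicate 2. Vmn1r132, whose start site at 21614092 lies beside the gap, was in a LAD in 7 libraries. Vmn1r135 and Vmn1r137 followed on its other side, with 10 and 11. The part of the gap in these states was not tested.

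**Figure D4:**
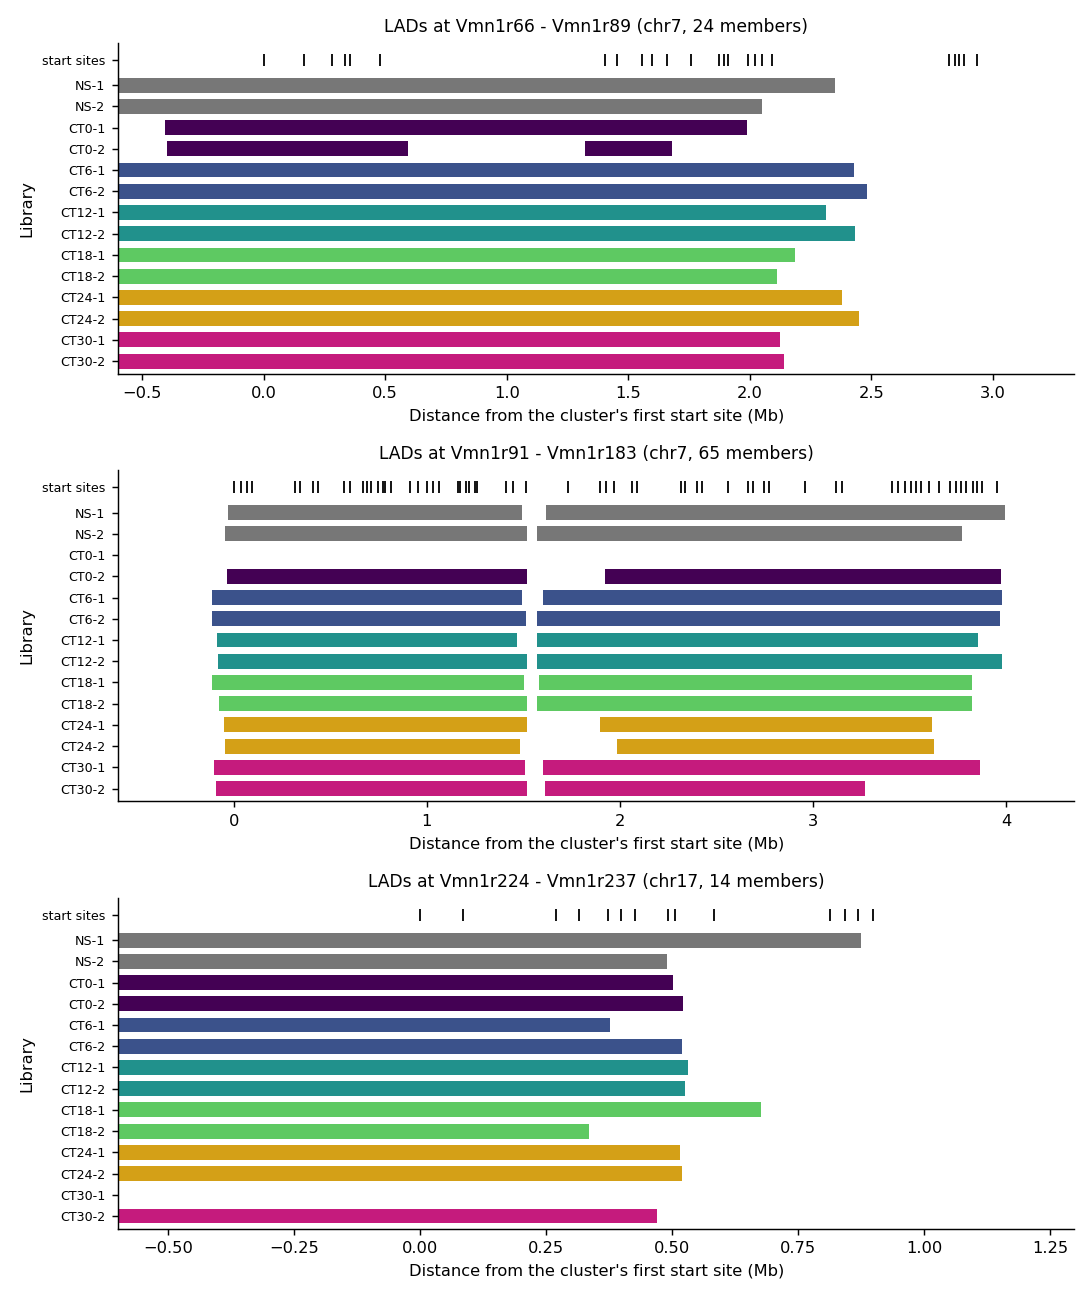
LADs (bars) in each library (rows) along 3 clusters, as the distance in Mb from the cluster's first start site. Ticks mark the members' start sites, colours the time points, and bars reaching the left edge continue beyond it. In the 65-member cluster each of the 13 libraries with LADs shows a break, and the right ends vary more than the left ones.

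This cluster was also the most repetitive in sequence. Of its words of 50 bases, 79.9% occurred more than once within the cluster on either strand, against 8.62% to 24.3% in the 7 other clusters of 5 or more. The upstream windows of 32 of its members fell into 13 groups with identical letters at different start sites, and no other cluster had such a group. Vmn1r42 and Vmn1r43, in the Vmn1r40 to Vmn1r54 cluster, are annotated with the same start site and so have 1 window in common. In 4 of the 13 groups the members differed in LAD state. The window of Vmn1r135 printed above is the same as that of Vmn1r163, whose start site lies at 23055540, yet the former was in LADs in 10 and the latter in 13 libraries. The pair was chosen after its values were seen. Reads from identical stretches cannot be assigned to a copy, so the states of members in this cluster are uncertain. The part of repetition in them was not tested.

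Vmn1r66 to Vmn1r89, also on chromosome 7 (10278006 to 13213020, 24 members), held all 11 members that were in LADs in each library, Vmn1r66 to Vmn1r76. The counts were 19 and 17 in NS mice, 15 and 11 at CT0 and 19 in each of the 10 later libraries. Both CT0 mice were therefore below every other mouse. F between circadian times was 9, the highest of the 7 clusters that varied, but did not pass (exact permutation test, p = 0.0909, adjusted p = 0.636). The 10 later libraries were tied, so this p was the smallest the values allowed, and the test could not decide. At CT0 the LAD began at 9870001 and 9880001 in the 2 mice, and in the other 12 between 9636555 and 9660001, next to an assembly gap that ends at 9636554. It ended at 12267000 and 11956000 at CT0, and in CT0 replicate 2 it was split in 2, with 6 and 5 members. With LADs under 1 Mb left out, 0 members of the family were in LADs in all 14 libraries, as the larger of those parts measured 0.992 Mb.

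The far end of the cluster was never in a LAD. Vmn1r85 to Vmn1r89 were in LADs in 0 libraries, and between them and Vmn1r84 lies Trim28, a gene for a corepressor, also at 0. Vmn1r77 to Vmn1r80 were in LADs in 13 libraries, Vmn1r81 and Vmn1r82 in 12 and Vmn1r83 and Vmn1r84 in 11. The state thus fell along the cluster in genome order. The other 32 protein-coding genes within the cluster averaged 38.2%, with the Zscan4 genes, which are expressed in early embryos, at 13 or 14 libraries.

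Vmn1r55 to Vmn1r65, the first cluster of chromosome 7 (5149670 to 6011010, 11 members), was in LADs in only some mice. In NS mice 8 and 7 members were in LADs, at CT0 0 and 6, at CT12 7 and 10 and at CT18 0 and 8. At CT6, CT24 and CT30 the count was 0 in both mice. Vmn1r55, the first member, was in a LAD in 0 libraries, Vmn1r59 in 6 and Vmn1r65, the last, in 3. The F ratio between circadian times was 2.52 (exact permutation test, p = 0.192, adjusted p = 0.672).

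Vmn1r224 to Vmn1r237 on chromosome 17 (20414146 to 21311865, 14 members) was cut by a LAD border. Members in LADs numbered 13 and 7 in the NS mice, 8 and 9 in the CT0 mice, 5 and 9 in the CT6 mice and 9 and 9 in the CT12 mice. The CT18 mice had 10 and 4, the CT24 mice 9 and 9 and the CT30 mice 0 and 7. The border fell within the cluster in each of the 13 libraries with a LAD there, between 20748000 and 21289000. It differed by 4.00 kb between the mice of CT24 and by 5.00 kb between those of CT12, but by 385 kb between NS mice. Vmn1r224, the first member, was in a LAD in 13 libraries, and the number of libraries fell to 8 for Vmn1r232, 2 for Vmn1r233 and 0 for Vmn1r237, the last. The F ratio between circadian times was 1.03 (exact permutation test, p = 0.381, adjusted p = 0.889).

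On chromosome 6 no cluster was in LADs in most mice. Vmn1r4 to Vmn1r31 (56924015 to 58475330, 28 members) had 13 members in LADs in CT0 replicate 2, 5 in CT6 replicate 2, 8 in CT12 replicate 1 and 5 in CT18 replicate 2, and 0 in the other 10 libraries. These were small LADs of 0.336 to 0.500 Mb. Those of CT6 replicate 2 and CT18 replicate 2 held the same 5 members, Vmn1r27 to Vmn1r31, and that of CT12 replicate 1 also held Vmn1r27 to Vmn1r29, which were thus in LADs in 3 libraries each. The LAD of CT0 replicate 2 lay apart and held Vmn1r6 to Vmn1r18. Vmn1r4, the first, was in 0 and Vmn1r31, the last, in 2. Vmn1r32 to Vmn1r39 (66560096 to 66810609, 8 members) had all 8 members in LADs in NS replicate 1, CT18 replicate 1 and CT30 replicate 1, and 4 in CT24 replicate 1. Those LADs were long, 6.73 to 10.6 Mb, and 0 of 7 replicate 2 libraries had a LAD there. Vmn1r32 was in a LAD in 4 libraries, and Vmn1r36 and Vmn1r39 in 3.

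Vmn1r40 to Vmn1r54 (89707540 to 90246300, 15 members) was the only cluster of 5 or more with 0 members in LADs in each of 14 libraries, from Vmn1r40 to Vmn1r54. Its members lay 7.69 to 10.1 Mb from the nearest LAD. By comparison, members of Vmn1r32 to Vmn1r39 that were outside lay at most 1.35 Mb from one. Its share minus that of Vmn1r66 to Vmn1r89 averaged -75.0 points and was below 0 in 14 of 14 libraries (exact test, adjusted p = 0.000570). Its GC content was 40.9%, against 39.1% to 40.8% in the 7 other clusters, and its CpG density was 6.12 per kb, within their range of 5.27 to 7.09.

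Vmn1r188 to Vmn1r223 on chromosome 13 (22084440 to 23247134, 36 members) was in LADs in 2 libraries only, with 30 members in CT6 replicate 2 and 18 in CT18 replicate 2. The LADs measured 1.045 and 0.756 Mb. Vmn1r188, the first member, was in a LAD in 1 library, Vmn1r198 in 2, and Vmn1r218 and Vmn1r223, the last, in 0. The mates of those mice, CT6 replicate 1 and CT18 replicate 1, had 0 members there. No other protein-coding gene lies between the cluster's first and last start sites.

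Clusters that were in LADs in few libraries differed in the grids of those libraries. The LAD starts of libraries with Vmn1r4 to Vmn1r31 in LADs lay on grids of 4 to 11 kb, and those with Vmn1r188 to Vmn1r223 on grids of 6 and 11 kb. Libraries without these clusters had grids of 4 to 61 kb, so fine grids occurred there too. Libraries with Vmn1r32 to Vmn1r39 in LADs had grids of 14 to 61 kb, and those without it 4 to 47 kb. The part of the grid in these states was not tested. Across circadian times, 0 of 7 clusters passed the F test, with adjusted p from 0.636 to 1 (exact permutation tests). At an unadjusted p under 0.05, 0 passed. For Vmn1r66 to Vmn1r89 the ties between libraries made such a p impossible, so the test could not decide there.

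The 7 other members lay outside clusters of 5 or more. Vmn1r1 on chromosome 1, Vmn1r2 and Vmn1r3 on chromosome 4, Vmn1r184 and Vmn1r185 on chromosome 7 and Vmn1r238 on chromosome 18 were in LADs in 0 libraries. Vmn1r90, which lies between both large clusters of chromosome 7, was in a LAD in CT18 replicate 1 and in 0 others. In CT30 replicate 1 it lay 0.0375 Mb from a LAD.

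Members were also counted whose state was the same in both mice of consecutive time points and differed between these, which are different mice. Only genes in LADs in both mice of the earlier time point could move out, and only those in neither could move in. These starting numbers differed between members and all genes. The shares below are over all members and all genes, so they are not rates of moving. From NS to CT0, 0 members moved into LADs (0.346% of all genes did) and 5 members, 2.40%, moved out (0.38% of all genes), namely Vmn1r58, Vmn1r81, Vmn1r82, Vmn1r135 and Vmn1r137. Among genes in LADs in both NS mice, 5 of 90 members and 79 of 510 of all genes moved out. From CT0 to CT6, 6 members moved in (1.04% of all genes) and 0 out (0.0913%). Those 6 were Vmn1r81 to Vmn1r84, Vmn1r135 and Vmn1r137, of which 4 had moved out in the step before. From CT6 to CT12, 7 members of the first chromosome 7 cluster, Vmn1r58 to Vmn1r64, moved in (0.538% of all genes) and 0 out (0.442%). They sit side by side in 1 LAD.

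The steps to and from CT0 depended on CT0 replicate 1. With CT0 replicate 2 alone, 13 members (6.25%, against 1.29% of all genes) moved in and 9 (4.33%, against 0.471%) out from NS to CT0, and 10 (4.81%, against 1.27%) in and 19 (9.13%, against 1.11%) out from CT0 to CT6. The 13 were Vmn1r6 to Vmn1r18, which also moved out again. This alternative was chosen after seeing the data.

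The later steps moved members mainly out of LADs. From CT12 to CT18, 0 moved in (0.457% of all genes) and 2, 0.962%, moved out (0.178%), Vmn1r179 and Vmn1r180. From CT18 to CT24, 0 moved in (0.231%) and 6, 2.88%, out (0.476%), Vmn1r135 and Vmn1r174 to Vmn1r178. Vmn1r174 to Vmn1r178 lie next to each other near the far end of the 65-member cluster. From CT24 to CT30, 1 moved in (0.509%), Vmn1r135, and 2 out (2.22%), Vmn1r231 and Vmn1r232 on chromosome 17. The shares of members moved were 0.481% and 0.962% in that step, below the shares of all genes in both directions.

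The 2 mice of a time point shared members in LADs to different degrees. Members in LADs in both mice numbered 90 for NS, 19 for CT0, 88 for CT6 and 97 for CT12, and 83 for CT18, 79 for CT24 and 67 for CT30, which is 9.13% (CT0) to 46.6% (CT12) of members, against 2.45% to 7.79% of all genes. A member was in a LAD in 1 mouse only for 87 members (41.8%) at CT0, against 6.30% of all genes, but for 14 (6.73%) at CT12, against 3.37%, and for 8 (3.85%) at CT24, against 3.91%. Most of all genes were in LADs in neither mouse, so these shares do not compare how far the mice agreed. At CT24, 79 members were in LADs in both mice and 8 in 1, against 1432 and 814 of all genes. The numbers were 97 and 14 against 1559 and 702 at CT12, and 19 and 87 against 817 and 1311 at CT0. The CT0 values rest on CT0 replicate 1, and a single remaining mouse gives no such count.

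A relation of the member share to the total LAD coverage of a library did not pass the test. Over 14 libraries Pearson's r was 0.385 (permutation test with 100000 resamples, p = 0.177) and Spearman's rho 0.380 (p = 0.182), with adjusted p = 0.182 for both. Without NS replicate 1 and CT30 replicate 2, the libraries farthest from the median coverage, r was 0.613 (n = 12, permutation p = 0.0323) and rho 0.517 (p = 0.0881). Within replicate 2 r was 0.780 (n = 7, exact p = 0.0290) and within replicate 1 it was 0.130 (n = 7, exact p = 0.836).

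Other genes of the vomeronasal system were mostly outside LADs, as were most genes. Of 19 genes listed for their roles, 18 (94.7%) were in LADs in 0 libraries, against 82.9% of all autosomal protein-coding genes. These include Trpc2, the transduction channel, at a median of 0.903 Mb from a LAD, Gnai2 at 13.7 Mb, Gnao1, the G protein subunit of the other receptor class, at 2.44 Mb, and the olfactory marker protein gene Omp at 2.51 Mb. The G protein gamma subunit gene Gng8 lay 1.15 Mb from a LAD and Bcl11b, a transcription factor of these neurons, 6.08 Mb. Robo2, an axon guidance receptor, was the exception and was in a LAD in 6 of 14 libraries.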

How the data were processed

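LMNB1 ChIP-seq had been done on liver of 14 mice, and the deposited files list the LADs of each mouse by their mm10 coordinates, with no score, signal or count per LAD. The authors had mapped ChIP and input reads with Bowtie, removed duplicates with Picard, brought each pair to equal depth per chromosome and called LADs with Enriched Domain Detector, its parameters being averages over 10 runs. Depth is therefore unknown, no counting interval could be given, and the spread of 2 mice (SD, n = 2) is the only measure of error.

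Start sites were taken from GENCODE vM21 and sequence from GRCm38.p6. Members at most 1 Mb apart formed a cluster. Neighbouring genes lay within a cluster or 1 Mb beside it. Shares were compared within libraries by exact sign-change permutation tests and between circadian times by an F ratio over all divisions into pairs, with Benjamini-Hochberg adjustment within each family of tests. Correlations used 100000 resamples, or all orders for 7 or fewer libraries. The tests were checked on simulated data. Python 3.11.15, NumPy 2.4.6 and pandas were used.

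Named genes were each member outside clusters of 5 or more, and, for each such cluster, the first, the last and those in LADs in the fewest and the most libraries, with others named where a count covered them. The members, clusters and gene lists were chosen with earlier results of these data known. Alternatives were gene-body overlap, LADs of at least 1 Mb, pseudogenes included, equal weight of clusters, 2 Mb between clusters, replicate subsets and leaving out each library. Inputs and expression data were not analysed here.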

Additional observations from a re-analysis of the deposited data

How the results depend on the processing

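Of the alternatives tried, the excess of members over all other and over neighbouring genes kept its direction and passed in each. With equal weight of the members' clusters, and the compared genes pooled, it fell to 15.0 and 8.17 points. In exact permutation tests the difference from Tas2r genes passed with LADs of at least 1 Mb (-15.4 points, adjusted p = 0.0380) and with pseudogenes included (-15.9, adjusted p = 0.0365), and with only replicate 2 both the Olfr (-11.9, adjusted p = 0.0313) and Tas2r (-18.1, adjusted p = 0.0195) differences did. With equal weight of clusters they turned to 3.53 and 8.50 points. With only replicate 1 the Vmn2r difference was -9.42, and 0 pairs of clusters passed, against 8 with only replicate 2 and 15 in all, with fewer libraries in each. Leaving out 1 library at a time gave differences of 35.6 to 39.2 points from other genes, -14.5 to -11.3 from Vmn2r, -10.3 to -4.31 from Olfr, -17.6 to -10.9 from Tas2r and 28.7 to 32.1 from neighbouring genes, 13 to 16 pairs, an F of 0.698 to 5.85 between times, -37.7 to 0.240 points for CT0 against NS, and r of 0.290 to 0.618 with coverage. The highest F came without CT0 replicate 2, with its lone mate assumed to vary like the others, and the highest r without NS replicate 1 (permutation p = 0.0169). With only replicate 2, r was 0.780. The causes were not tested. Among single pairs of clusters, Vmn1r55 to Vmn1r65 against Vmn1r188 to Vmn1r223 turned to -0.758 points with LADs of at least 1 Mb. Vmn1r4 to Vmn1r31 against Vmn1r188 to Vmn1r223 turned to 3.30 points without CT6 replicate 2 (range over libraries left out -5.31 to 3.30), 0.733 without CT18 replicate 2 and 4.08 with only replicate 1. None of these pairs passed in either setting. With LADs of at least 1 Mb, 64 members were in LADs in no library, and the share of all genes under that setting was not computed. This alternative was chosen for this count after seeing the data, as was leaving out CT0 replicate 1. Without that library, changes of state of members summed over all steps numbered 69, against 29 with it. A member can count in more than 1 step, and without CT0 replicate 1 the steps to and from CT0 rest on 1 CT0 mouse. These sums were not computed for all genes. Of the recomputed values for single pairs, clusters and counts, 481 kept direction and call, 43 lost and 3 gained a call.

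Replicate numbers were not used as pairs in the main tests between time points. The deviations of the numbered mice correlated above 0.1 in 6 of 21 pairs of time points (-0.109 to 0.457 over 20807 genes). The highest value was that of NS with CT0, and the median was 0.0541. Whether the numbers mark mice handled together was not tested. The numbers are those of the titles. For 3 libraries (NS replicate 2, CT0 replicate 2 and CT12 replicate 1) the deposited name carries the number 3 instead. Those libraries had the finest grids, of 4, 4 and 5 kb. With the replicate block, F between times was 1.05 (exact permutation p = 0.440), CT0 against NS stayed at -18.8 points (exact p = 1 for 2 pairs), and 0 clusters passed.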
